A study of Homo sapiens with 4 samples.

Results

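Polycomb repressive complex genes were examined in H9 human embryonic stem cells in which the long non-coding RNA gene SNHG26 was repressed. The set holds 10 genes, picked by name: EZH2, SUZ12, EED, RBBP4, RBBP7 and JARID2 of Polycomb repressive complex 2 (PRC2), and RNF2, RING1, BMI1 and PHC1 of Polycomb repressive complex 1 (PRC1). All 10 were among the 16174 genes listed, and 9 of them had a value above 0 in at least 1 library. The measure is TPM, a read number per unit of gene length, brought to a fixed total within every library.

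The study read poly(A) RNA of primed H9 cells, an established embryonic stem cell line, as PCR-amplified cDNA on a nanopore sequencer, to ask how the loss of SNHG26 alters the transcriptome. Cells of both arms carried a doxycycline-inducible dCas9-BFP-KRAB, a Cas9 without nuclease activity joined to a repressor domain, brought in on a piggyBac transposon. One arm received 4 pooled SNHG26 guides and the other control non-targeting guides. Cells were selected with puromycin, given doxycycline and harvested after 2 or 3 days, with 1 library per arm and day. The labels name no clone and do not say whether the libraries came from separate cultures. The 2 libraries of an arm differ in day, so p-values measure only the spread between these libraries, day included. An uninduced or untransfected sample was not analysed here.

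Polycomb proteins keep developmental genes silent. PRC2 methylates lysine 27 of histone H3 through its catalytic subunit EZH2 or EZH1, and PRC1 ubiquitinates histone H2A through RING1 or RNF2 paired with a PCGF protein such as BMI1. In embryonic stem cells both complexes sit at the CpG-rich promoters of lineage genes, and JARID2 helps bring PRC2 to them.

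The libraries were shallow. If every read covers the whole listed gene, the upper bounds were 1044055 (day 2) and 1220265 (day 3) reads with SNHG26 guides, and 947338 and 1135936 with control guides. SNHG26 itself was listed at 0 and 0.933 TPM with its guides and at 2.98 and 4.03 TPM with control guides, on day 2 and day 3 (log2 difference -1.69, SE 0.58, limma adjusted p = 0.935). Of the 14 markers of primed stem cells, 12 had a value and ZIC2 was at 0, with a summed level of 1930 to 2137 TPM. Many markers of other cell types were missing from the listed genes, so their sums cover few genes. Mesendoderm markers (3 of 6 listed) summed to 0 with SNHG26 guides and to 5.34 and 1.98 TPM with control guides, on day 2 and day 3. The control sum of day 3 is at most 1.01 reads of MIXL1, and that of day 2 comes from another marker. A listed 0 allows up to 3 reads, so a loss with SNHG26 guides cannot be read from these sums. Over all 13840 genes with a value, 12.6% were lower with SNHG26 guides without overlap. Trophoblast and amnion markers (2 of 8 listed) summed to 0 to 1.29 TPM. FOXA2, the only 1 of 4 endoderm markers listed, was at 0. Neuroectoderm markers (2 of 5 listed, OTX1 at 0) summed to 17.1 to 24.5 TPM, and fibroblast markers (4 of 7 listed) to 65.1 to 96.3 TPM. Whether any of these bears on the Polycomb values was not tested. In bulk RNA, fewer cells of a type and less RNA per cell cannot be told apart.

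The length behind the deposited TPM was inferred from the values. For 2853 of the 13840 genes with a value (20.6%), TPM times the genomic span, introns included, gave whole reads in every library. For genes with several transcripts, such as SUZ12 and EZH2, the values can be written as reads on transcripts of different span. Reads given below take the listed span and are upper bounds unless said otherwise. A single read over a span of 10 kb was worth 0.729 and 0.653 TPM in the SNHG26-guide libraries and 0.803 and 0.672 TPM in the control-guide libraries, on day 2 and day 3. JARID2 spans 275974 bases, 48.0 times its spliced length, so that 1 of its reads was worth only 0.0243 TPM in the control library of day 3. RING1 spans 4223 bases, and 1 read there would have been worth 1.59 TPM in the same library.

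Upstream sequence is shown for 5 of the genes, because their levels set SNHG26 guides day 3 and control guides day 2 apart from the other 2 libraries without overlap, as described below, and because a RefSeq promoter window was at hand for them. Each line gives the 180 bases before the outermost annotated start, 5′ to 3′ on the gene's strand, from RefSeq on GRCh38.p14. Capitals mark CCAAT, or ATTGG where it lies on the other strand.
EZH2, chr7:148884322-148884501, minus strand: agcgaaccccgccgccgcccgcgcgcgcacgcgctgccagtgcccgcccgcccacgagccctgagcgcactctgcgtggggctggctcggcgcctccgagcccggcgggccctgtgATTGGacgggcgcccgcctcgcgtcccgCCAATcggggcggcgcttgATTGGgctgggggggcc
SUZ12, chr17:31936827-31937006, plus strand: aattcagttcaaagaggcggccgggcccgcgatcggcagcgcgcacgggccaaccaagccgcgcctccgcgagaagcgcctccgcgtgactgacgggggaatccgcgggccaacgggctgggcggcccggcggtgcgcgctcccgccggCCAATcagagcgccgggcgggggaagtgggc
RBBP4, chr1:32650962-32651141, plus strand: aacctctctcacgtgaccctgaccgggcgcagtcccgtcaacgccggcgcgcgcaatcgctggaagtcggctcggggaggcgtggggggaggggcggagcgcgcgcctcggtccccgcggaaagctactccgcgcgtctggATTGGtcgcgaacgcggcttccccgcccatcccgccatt
JARID2, chr6:15245889-15246068, plus strand: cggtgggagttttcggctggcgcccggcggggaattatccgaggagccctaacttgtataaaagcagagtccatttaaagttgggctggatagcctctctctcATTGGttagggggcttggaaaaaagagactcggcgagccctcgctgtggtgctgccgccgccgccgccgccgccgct
RBBP7, chrX:16870415-16870594, minus strand: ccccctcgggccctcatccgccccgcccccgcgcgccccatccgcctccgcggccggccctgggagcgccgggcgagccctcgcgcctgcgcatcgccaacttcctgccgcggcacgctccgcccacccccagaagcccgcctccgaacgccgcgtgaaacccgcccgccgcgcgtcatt

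EZH2 held 3 matches, at 17, 36 and 64 bases before the annotated start. SUZ12, RBBP4 and JARID2 held 1 each, at 31, 39 and 77 bases, and RBBP7, RING1 and BMI1 held none. That is 4 of the 7 members with a window, against 26.2% of 34943 promoter windows of the same length. The E2F motif TTTNGCGC was in 0 of the 7 windows (1.14% of all windows) and the cyclic AMP response motif TGACGTCA in 0 of 7 (1.5%), on either strand. The 7 windows were rich in CpG, with 29 in EZH2, SUZ12 and RBBP4, 31 in RBBP7, 27 in RING1, 21 in BMI1 and 16 in JARID2, against a median of 8 over all windows. The background windows end at the RefSeq start rather than at the outermost annotated start. A match is a string of letters and not evidence that a factor binds.

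**Figure D1:**
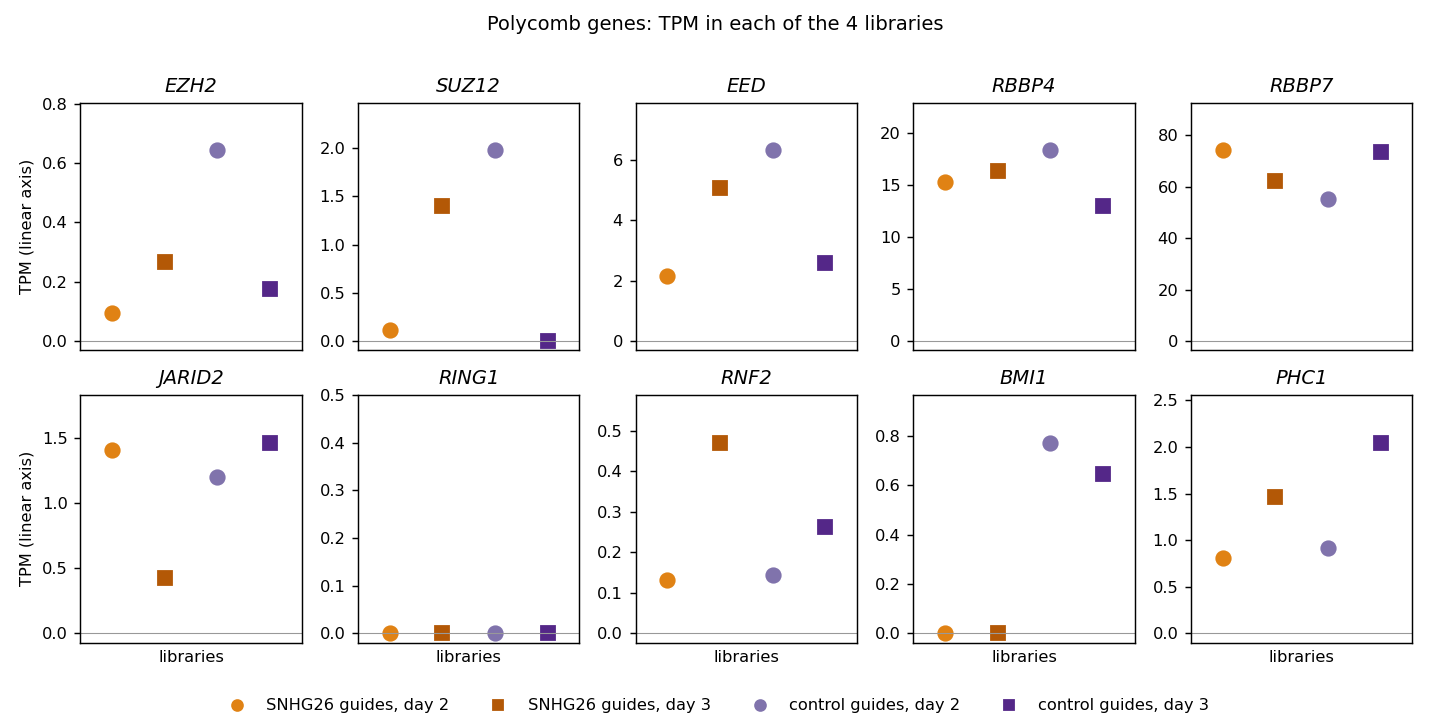
TPM (linear axis, a scale of its own in each panel) of the 10 Polycomb genes in the 4 libraries, 1 point per library. RBBP7 lay between 55.1 and 74.1 TPM and RBBP4 between 12.9 and 18.3 TPM, while RING1 was listed at 0 in every library.

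EZH2, the PRC2 methyltransferase gene (chr7:148807257-148884321, minus strand), was listed at 0.0948 and 0.268 TPM with SNHG26 guides on day 2 and day 3, and at 0.642 and 0.175 TPM with control guides. The control library of day 2 was highest and the SNHG26-guide library of day 2 lowest, and the arms overlapped. These values correspond to at most 1, 3, 6 and 2 reads in the same order, 12 in all. EZH1, its paralog, was as thinly covered, at 0.295, 0.146, 0.179 and 0.429 TPM. The share of EZH2 in the summed TPM of EZH1 and EZH2 was 24.3% and 64.7% with SNHG26 guides and 78.2% and 28.9% with control guides (49.0% ± 26.5, SD, n = 4), and each arm held a low and a high library.

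SUZ12, which stabilises PRC2 and is needed for its activity (chr17:31937007-32001045, plus strand), was listed at 0.114 and 1.40 TPM with SNHG26 guides on day 2 and day 3, and at 1.98 and 0 TPM with control guides. The high libraries were day 3 of the SNHG26 guides and day 2 of the control guides, so both arms held a low and a high library. Taken on the full gene, they would be 1, 13.7, 15.7 and 0 reads. As 13.7 and 15.7 are not whole, the reads of the high libraries cannot all lie on the full gene. The same values also come out as 1, 2, 4 and 0 reads if 1 read in each high library lay on an annotated retained-intron transcript of SUZ12 that spans only 5024 bases (chr17:31994353-31999376), where a read weighs 12.7 times as much as on the full gene. The TPM gap in SUZ12 can therefore rest on 2 reads.

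EED, which binds trimethylated lysine 27 and stimulates the methyltransferase (chr11:86201212-86279807, plus strand), was listed at 2.14 and 5.08 TPM with SNHG26 guides and at 6.31 and 2.57 TPM with control guides, on day 2 and day 3. Its high and low libraries were the same as those of SUZ12, and the arms overlapped. At most 23, 61, 61 and 30 reads lie behind these values, or an estimated 10.1, 26.6, 26.9 and 13.1 if they lay on the annotated coding transcript, whose span is 34193 bases against 78596 for the listed gene.

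RBBP4 and RBBP7 encode histone-binding WD40 proteins that PRC2 shares with the NuRD and SIN3 deacetylase complexes. By mean they were the most abundant members on either scale used. Per kb of spliced transcript, however, the range of RBBP4 overlapped that of EED. RBBP4 (chr1:32651142-32686211, plus strand) was listed at 15.3 and 16.3 TPM with SNHG26 guides and at 18.3 and 12.9 TPM with control guides, on day 2 and day 3. The SNHG26-guide libraries lay between the control libraries, with at most 67 to 87 reads in a library.

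RBBP7 (chrX:16839283-16870362, minus strand) was listed at 74.1 and 62.3 TPM with SNHG26 guides and at 55.1 and 73.5 TPM with control guides. The control library of day 2 was lowest and the arms overlapped, with at most 213 to 339 reads in a library. The share of RBBP4 in the summed TPM of RBBP4 and RBBP7 was 17.1%, 20.7%, 24.9% and 14.96% (19.4% ± 4.36, SD, n = 4), in the order SNHG26 guides day 2 and day 3, control guides day 2 and day 3. With 2 libraries against 2, the smallest two-sided p that an exact permutation test can give is 0.333, and no such test was read for any member.

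JARID2, the PRC2 cofactor that carries a Jumonji domain without demethylase activity (chr6:15246069-15522042, plus strand), was listed at 1.40 and 0.426 TPM with SNHG26 guides on day 2 and day 3, and at 1.19 and 1.46 TPM with control guides. The SNHG26-guide library of day 3 stood below the other 3, and the other SNHG26-guide library lay within the control range. On the full span these are 53, 18, 41 and 60 reads. JARID2 thus had a low TPM but more reads than PHC1, whose mean TPM was higher.

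**Figure D2:**
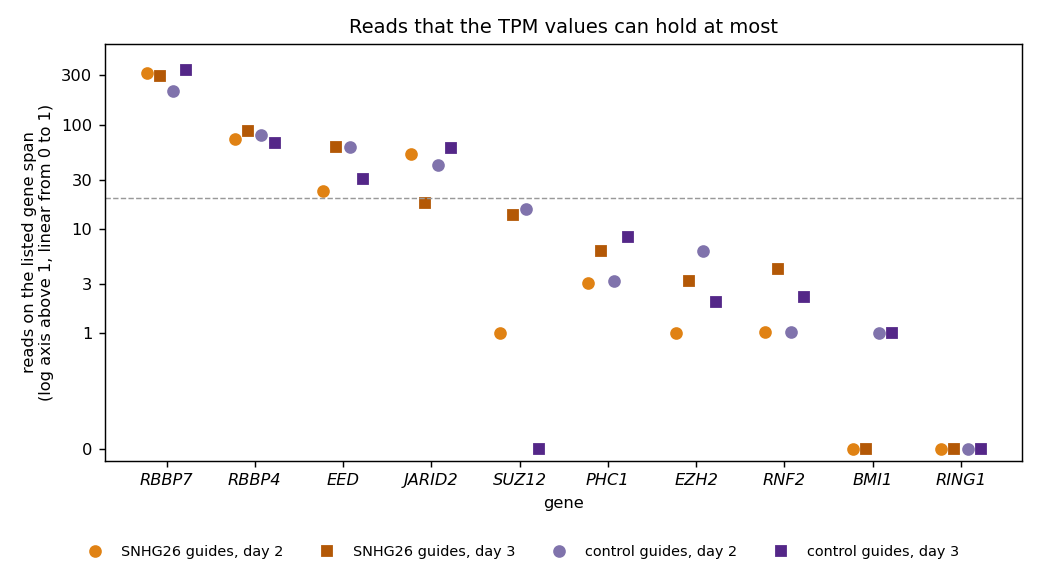
Reads (log axis above 1, linear from 0 to 1) that the TPM of each Polycomb gene can hold at most, if every read covers the listed gene span, 1 point per library. RBBP7, RBBP4, EED and JARID2 have a mean above the dashed line at 20 reads, and SUZ12, PHC1, EZH2, RNF2, BMI1 and RING1 do not.

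In PRC1, the catalytic RING subunit was seen through RNF2 alone. RNF2 (chr1:185045497-185102603, plus strand), the H2A ubiquitin ligase also called RING1B, was listed at 0.131 and 0.470 TPM with SNHG26 guides and at 0.145 and 0.262 TPM with control guides, on day 2 and day 3. Both day 3 libraries were above both day 2 libraries and the arms overlapped, on at most 1, 4, 1 and 2 reads. RING1 (chr6:33208500-33212722, plus strand), its paralog, was listed at 0 in all 4 libraries. A count of 0 allows up to 3 reads, which on its short span would be 4.64 to 5.71 TPM. A RING1 level far above the 0.131 to 0.470 TPM of RNF2 could thus have been missed at this depth. Floors such as this cover counting error only, since PCR reads without molecular identifiers are not independent molecules.

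BMI1, the PCGF protein also known as PCGF4 (chr10:22321099-22331484, plus strand), was listed at 0 in both SNHG26-guide libraries and at 0.773 and 0.647 TPM with control guides on day 2 and day 3. The arms did not overlap, but the control values are 1 read each, under the 3 reads that a count of 0 allows (1.89 to 2.32 TPM), so no fold is given. BMI1 made up 0%, 0%, 2.03% and 1.10% of the summed TPM of the 6 PCGF genes, and 0%, 0%, 0.583% and 0.753% of their reads on the full span. PCGF2 and PCGF1, its paralogs in other PRC1 assemblies, were higher in every library, PCGF2 at 16.8, 20.7, 14.3 and 27.3 TPM and PCGF1 at 25.2, 10.1, 9.08 and 25.6 TPM. PCGF1 is short and held at most 9.17, 4.12, 3.00 and 10.1 reads, while PCGF3, a long gene, held at most 78.5, 107, 73.2 and 37.1.

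PHC1, a Polyhomeotic protein whose SAM domain polymerises and clusters canonical PRC1 (chr12:8913896-8941467, plus strand), was listed at 0.811 and 1.46 TPM with SNHG26 guides and at 0.919 and 2.05 TPM with control guides, on day 2 and day 3. Both day 3 libraries were above both day 2 libraries, and the arms overlapped, on at most 3, 6, 3 and 8 reads. PHC1 made up 100%, 95.1%, 100% and 86.0% of the summed TPM of PHC1, PHC2 and PHC3, and 100%, 84.9%, 100% and 61.8% of their reads on the full span. Its processed pseudogene PHC1P1, which can share reads with it, held 0, 2, 1 and 3 reads.

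**Figure D3:**
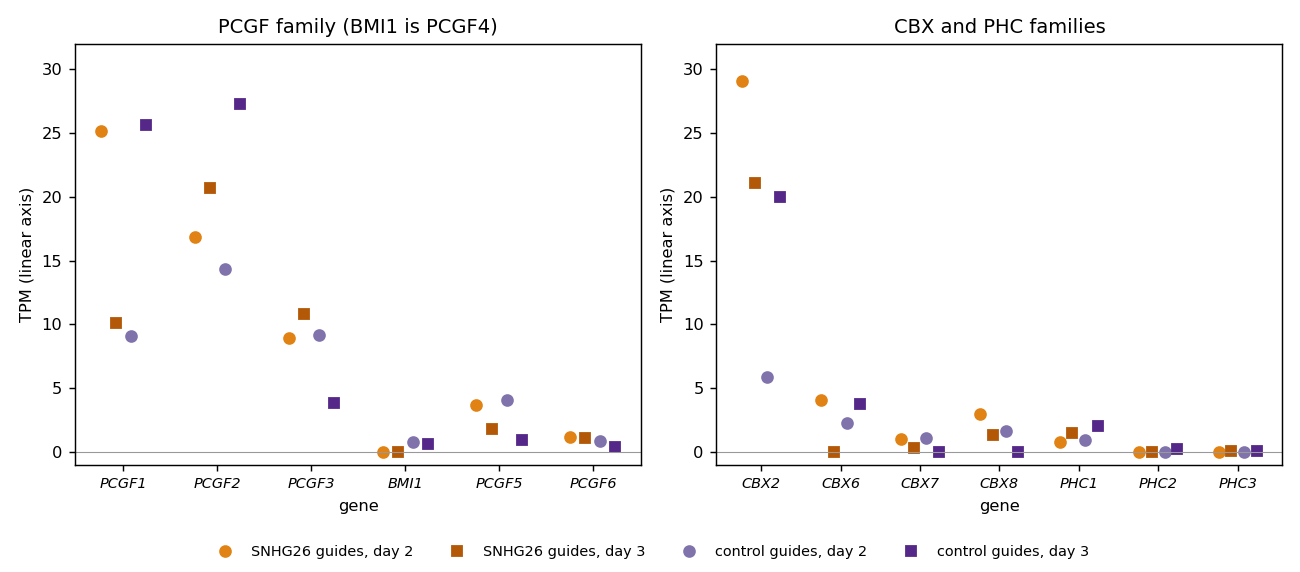
TPM (linear axis) of the PCGF family (left) and of the CBX and PHC families (right), 1 point per library. BMI1 lay at or below 0.773 TPM in every library, under PCGF1 and PCGF2, and PHC1 lay above PHC2 and PHC3 in every library.

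Some members share ground with another gene on the opposite strand, and the sources used here do not say whether reads were counted by strand. RBBP7 overlaps TXLNG over 5237 bases, PHC1 overlaps M6PR over 1107 bases, and RBBP4 overlaps SYNC, which was listed at 0. M6PR had at most 31.0 to 47.4 reads in a library, more than PHC1 itself. Metazoa_SRP, a short gene that overlaps EZH2 on the opposite strand, held 2 reads in the control library of day 2, where EZH2 was highest, and 0 in the others. RNA5SP437, which overlaps SUZ12 likewise, held 1 read in the SNHG26-guide library of day 2 and 2 in the control library of day 2. Whether any of these bears on the Polycomb values was not tested.

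The order of the mean levels depended on the length used. In TPM over the genomic span, the means over the 4 libraries were 66.3 ± 9.19 for RBBP7, 15.7 ± 2.23 for RBBP4, 4.02 ± 2.00 for EED, 1.31 ± 0.568 for PHC1, 1.12 ± 0.477 for JARID2 and 0.873 ± 0.972 for SUZ12 (SD, n = 4). BMI1 (0.355 ± 0.413), EZH2 (0.295 ± 0.242) and RNF2 (0.252 ± 0.157) followed, with RING1 at 0. The ranges of neighbours did not overlap from RBBP7 down to PHC1, and all later neighbours overlapped as far as RNF2. RBBP7 ranked 975th, RBBP4 2383rd and EED 4859th by mean TPM among the listed genes.

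Per kb of spliced transcript, the estimated reads in a library averaged 105 ± 19.8 for RBBP7, 9.70 ± 1.07 for RBBP4, 8.61 ± 3.97 for EED and 7.47 ± 3.20 for JARID2 (SD, n = 4). On this scale JARID2 stood next to EED, and PHC1 stood at 1.00 ± 0.497. SUZ12 stood at 1.70 ± 1.84 as an upper bound, with reads set on the full gene, or 0.390 if its 7 fewest reads are taken. EZH2 stood at 1.17 ± 0.845, RNF2 at 0.584 ± 0.405 and BMI1 at 0.144 ± 0.167. On this scale only RBBP7 and RBBP4 were neighbours whose ranges did not overlap.

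The main comparison set the SNHG26 guides against the control guides. No Polycomb gene passed the test. Of the 10 members, 5 reached the mean of 1 TPM required for the test, namely EED, JARID2, PHC1, RBBP4 and RBBP7, and 0 of these passed a limma adjusted p of 0.05. Over all genes 0 of 8274 passed (0.0%), with 337 at an unadjusted p below 0.05, and none of the 5 members was among the latter.

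Differences are on the log2(TPM + 1) scale, on which changes at low levels appear too small. JARID2 differed by -0.33 (SE 0.59, limma adjusted p = 0.992). EED differed by -0.22 (SE 0.59, limma adjusted p = 0.998) and PHC1 by -0.19 (SE 0.56, limma adjusted p = 0.998). RBBP4 differed by 0.03 (SE 0.31) and RBBP7 by 0.09 (SE 0.26), each with a limma adjusted p of 0.998. For each of the 5, the difference was smaller than its standard error. The median of the 5 was -0.19, with 2 higher and 3 lower, beside a median of 0.04 over all tested genes, of which 4407 were higher and 3867 lower.

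The other 5 members lay below that mean. In the fit over every gene with a value, EZH2 differed by -0.24 (SE 0.23, limma adjusted p = 0.882), SUZ12 by -0.08 (SE 0.75, limma adjusted p = 0.998) and RNF2 by 0.10 (SE 0.19, limma adjusted p = 0.967). BMI1 was the only member whose arms did not overlap, 1 of the 9 with a value, lower with SNHG26 guides on 2 control reads. Over all 13840 genes with a value, 12.6% were lower without overlap and 26.3% split the arms either way. The BMI1 adjusted p in that fit was 0.639 by limma.

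The guide difference did not hold its sign over the days for most members. In 7 of the 9 with a value, it had opposite signs on day 2 and day 3. The share of all genes with opposite signs was not computed, so this count cannot be called a trait of the members. For 6 of the 7, the opposite signs are the crossed split described below, which 25.8% of all genes with a value had. SUZ12 differed by -1.42 on day 2 and by 1.26 on day 3, EED by -1.22 and 0.77, EZH2 by -0.59 and 0.11, and RBBP4 by -0.25 and 0.31. RBBP7 went the other way, with 0.42 and -0.23, as did JARID2, with 0.13 and -0.79. RNF2 differed by -0.02 and 0.22. Only PHC1 (-0.08 and -0.31) and BMI1 kept 1 sign, and each daily difference rests on 1 library against 1.

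**Figure D4:**
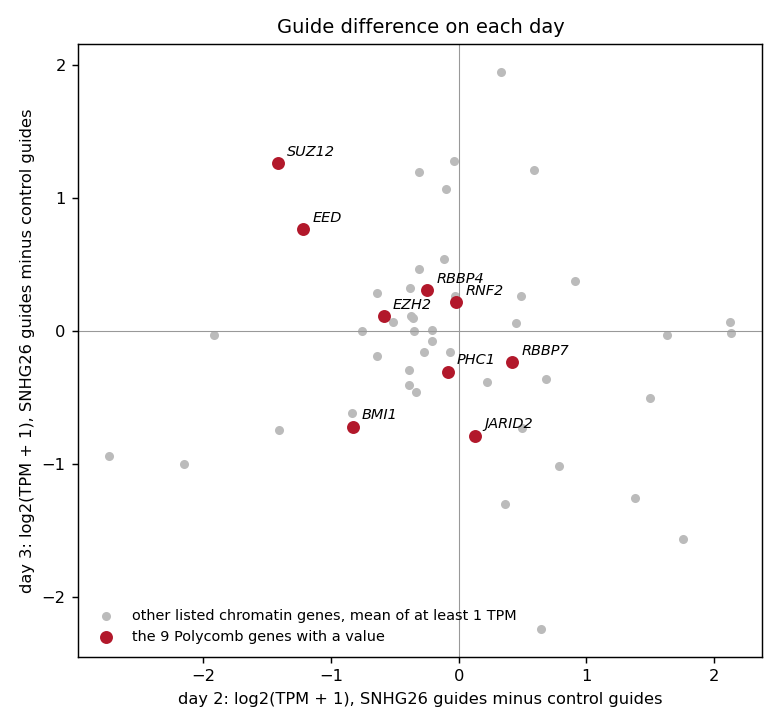
Difference between SNHG26 guides and control guides in log2(TPM + 1), on day 2 (horizontal axis) and day 3 (vertical axis), for the 9 Polycomb genes with a value (red) and for other listed chromatin genes that were tested (grey). SUZ12, EED, EZH2, RBBP4 and RNF2 lie in the upper left, RBBP7 and JARID2 in the lower right.

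Between the days, PHC1 had the largest difference of the tested members, 0.56 higher on day 3 (SE 0.46, limma adjusted p = 0.760), higher in both arms by 0.44 and 0.67. JARID2 differed by -0.29 (SE 0.55, limma adjusted p = 0.905), RBBP4 by -0.19 (SE 0.26, limma adjusted p = 0.854), RBBP7 by 0.08 (SE 0.24, limma adjusted p = 0.952) and EED by -0.04 (SE 0.59, limma adjusted p = 0.996). None of the 5 passed, beside 3 of 8274 genes (0.0363%). PHC1 and RNF2 were higher on day 3 without overlap, 2 of the 9 members, where 14.9% of all genes with a value were higher without overlap and 31.6% split the days either way. Both were thinly covered, with at most 20 reads of PHC1 and 8 of RNF2 over the 4 libraries. RNF2 differed by 0.26 in the fit over every gene with a value (SE 0.13, limma adjusted p = 0.742).

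A crossed contrast tested whether the guide difference changed between the days, by setting SNHG26 guides day 3 and control guides day 2 against SNHG26 guides day 2 and control guides day 3. It uses the same 4 libraries as the other contrasts. EED was 0.99 higher in the first pair (SE 0.36, limma unadjusted p = 0.048, adjusted p = 0.961), RBBP4 0.28 higher (SE 0.28, limma adjusted p = 0.972), RBBP7 differed by -0.33 (SE 0.21, limma adjusted p = 0.961), JARID2 by -0.46 (SE 0.57, limma adjusted p = 0.995) and PHC1 by -0.11 (SE 0.57, limma adjusted p = 0.999). None of the 5 passed, beside 8 of 8274 genes (0.0967%). A limma unadjusted p below 0.05 was reached by 1 of the 5, beside 291 of 8274 genes. In the fit over every gene with a value, SUZ12 was 1.34 higher (SE 0.31, limma unadjusted p = 0.014, adjusted p = 0.857) and EZH2 0.35 higher (SE 0.20, limma adjusted p = 0.888).

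The pairs of this contrast did not overlap for 6 of the 9 members, where 25.8% of all genes with a value did not overlap. EZH2, SUZ12, EED and RBBP4 were higher in SNHG26 guides day 3 and control guides day 2 (13.4% of all genes), and JARID2 and RBBP7 were lower there (12.4% of all genes). The 6 genes of the PRC2 core list did not share 1 direction, since RBBP7 and EZH1, the latter on few reads, lay lower in that pair without overlap and the other 4 lay higher. EED, RBBP4, JARID2 and RBBP7 were the 4 members with a mean of at least 20 reads on the listed span, an upper bound. All 4 split this way, against 28.4% of 3787 such genes. On its coding transcript, EED held only an estimated 10.1, 26.6, 26.9 and 13.1 reads, in the order used above. With different values in all 4 libraries, a gene splits by this pair, by guides or by days, and in only 1 of these ways. That 0 of the 4 split by guides (31.3% of such genes) or by days (39.3%) therefore follows and is no further result. For EZH2 and SUZ12 the split rests on a few reads. In the upstream sequences printed above, CCAAT was found for EZH2, SUZ12 and RBBP4 of the first pattern, with no window for EED. In the second it was found for JARID2 but not for RBBP7. The sequences were printed because of this split, so the matches are no support for it, and a link was not tested. The first pair is not a condition of the study, no member passed the adjusted test in it, and the source of the split was not tested.

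**Figure D5:**
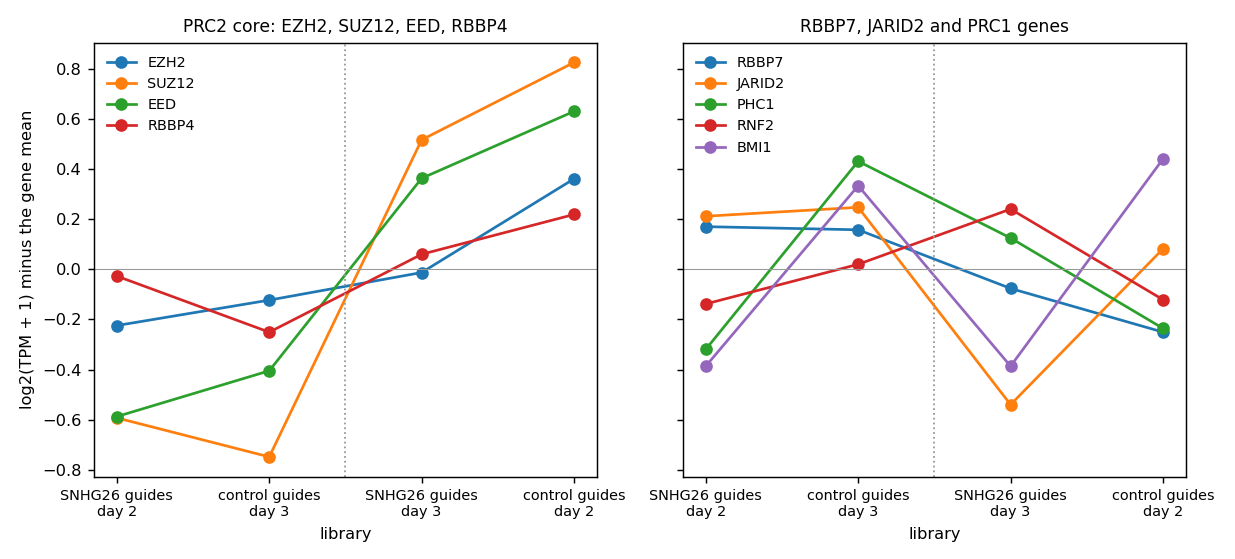
Log2(TPM + 1) minus the mean of each gene over the 4 libraries, for EZH2, SUZ12, EED and RBBP4 (left) and for RBBP7, JARID2, PHC1, RNF2 and BMI1 (right), 1 point per library, with lines joining the points of a gene in no time order. To the right of the dotted line, in SNHG26 guides day 3 and control guides day 2, the 4 genes of the left panel lie above their values to the left of it, and RBBP7 and JARID2 lie below.

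Further Polycomb genes, genes that oppose Polycomb and genes of other complexes with RBBP4 or RBBP7 gave no call either. Of these 83 genes, 78 were listed and 42 tested between the guides, 17 higher and 25 lower with a median of -0.11, and 0 passed. The genes named from these lists are the most abundant ones and those with 1 sign of the guide difference on both days, so that sign was fixed by the choice. JARID2 is one of 9 PRC2 accessory genes, of which 4 were tested, 1 higher and 3 lower (median -0.35). MTF2, a Polycomb-like protein that brings PRC2 to CpG-rich DNA, was listed at 3.29 and 3.54 TPM with SNHG26 guides and at 4.42 and 5.23 TPM with control guides (log2 difference -0.40, SE 0.34, limma adjusted p = 0.935). PHF19, its paralog, was at 4.80, 2.88, 1.06 and 4.51 TPM and the arms overlapped.

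Among the partners of RNF2, RING1 and BMI1, 4 RING and PCGF genes were tested, 3 higher and 1 lower (median 0.14). PCGF1 took the same side as RBBP7 and JARID2 in the crossed contrast (-1.32, SE 0.26, limma unadjusted p = 0.00685, adjusted p = 0.681). It held at most 3.00 to 10.1 reads in a library. Of the 42 further genes tested, 25 were higher and 17 lower in that contrast. A limma unadjusted p below 0.05 was reached by 2 of the 42, beside 291 of 8274 genes. With PHC1, 5 canonical PRC1 genes of the CBX, PHC and SCM families were tested, 3 higher and 2 lower (median 0.16). CBX2, which reads methylated lysine 27 and compacts chromatin, was at 29.1 and 21.1 TPM with SNHG26 guides and at 5.91 and 20.01 TPM with control guides (log2 difference 1.10, SE 0.63, limma adjusted p = 0.935). CBX6 was at 4.05, 0, 2.23 and 3.73 TPM.

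Variant PRC1 carries RYBP or YAF2 in place of the CBX protein of canonical PRC1. Of the 8 tested genes listed for it, 3 were higher and 5 lower (median -0.08). RYBP, at a mean of 0.114 TPM, was not among them. CBX3 was at 71.0, 67.6, 82.4 and 71.3 TPM, SKP1 at 51.6, 61.8, 52.7 and 51.4 TPM, and WDR5 at 7.94, 6.29, 5.38 and 5.06 TPM, in the order used above. Genes that oppose Polycomb did not pass either. Of those around the removal of H2A ubiquitin, 1 was higher and 3 were lower (median -0.14), with BAP1, the H2A deubiquitinase, at 11.8, 18.6, 18.9 and 15.1 TPM and MBD6, a partner of BAP1, at 6.06, 0.892, 4.49 and 3.67 TPM. Of 10 H3K27 demethylase and trithorax genes, 5 were tested, 1 higher and 4 lower (median -0.18). No demethylase was among the tested genes, since none reached a mean of 1 TPM. MEN1, a subunit of the MLL methyltransferases, was at 0, 0.928, 3.43 and 2.86 TPM (log2 difference -1.57, SE 0.58, limma adjusted p = 0.935). EP300, a histone acetyltransferase of lysine 27, was at 9.18 and 12.0 TPM on day 2 and listed at 0 in both day 3 libraries. Its difference between the days did not pass (-3.52, SE 0.36, limma adjusted p = 0.138). The day 2 values hold at most 110 and 131 reads, and the fewest reads that could give them were not worked out.

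RBBP4 and RBBP7 also serve complexes other than PRC2, such as NuRD, SIN3 and the chromatin assembly factor. Of the 14 tested genes listed for such complexes, 5 were higher and 9 lower (median -0.12). CHD4, the NuRD remodeller, was at 17.7 and 19.4 TPM with SNHG26 guides and at 23.4 and 23.9 TPM with control guides (log2 difference -0.34, SE 0.25, limma adjusted p = 0.935). SAP18 was at 72.3, 74.2, 52.8 and 71.2 TPM, SAP30 at 7.76, 10.9, 3.66 and 8.17 TPM and HDAC2, a deacetylase of both NuRD and SIN3, at 23.4, 18.7, 27.1 and 18.6 TPM.

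Developmental genes that Polycomb is known to silence in stem cells gave few values in either arm. Of 46 such genes, 10 were listed, 5 had a value and 0 had one in all 4 libraries. They summed to 2.09 and 1.87 TPM with SNHG26 guides and to 0 and 9.52 TPM with control guides, so the highest sum was in a control library. Each value of IRX3 is 1 read, and a listed 0 allows up to 3 reads, so low levels of these genes were not detectable at this depth. IRX3, the only one to reach the mean for the test, was at 2.09, 1.87, 0 and 1.93 TPM (log2 difference 0.80, SE 0.73, limma adjusted p = 0.937).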

How the data were processed

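Per the labels' protocols, poly(A) RNA was primed with oligo-dT, strand switched, amplified for 14 cycles and read on a nanopore sequencer. The authors deposited gene-level TPM for 16174 genes in 4 libraries. The submitters' processing notes name minimap2 2.24-r1122 and GRCh38. The counting tool, annotation and filters are not given in the sources used here. The value of 1 read was recovered from the TPM: 2853 of 13840 genes (20.6%) came out as whole reads over the listed span, within 0.0001 read, in each library. For other genes, reads on the full span are an upper bound, and estimates use the span of a GENCODE 29 coding transcript. This is too few whole genes for a count test.

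Genes averaging 1 TPM or more were tested on log2(TPM + 1) with limma 3.58.1 in R 4.3.3 (trend, no day term, Benjamini-Hochberg over 8274 genes, threshold 0.05), on 2 libraries an arm. The code was tested on simulated data. Members, lists and tests were chosen with earlier results of these data known. All 10 members are named. From each other list, the 2 genes with the highest mean and, above a mean of 5 TPM, 1 higher and 1 lower gene of like sign on both days are named, except 1 gene that is not reported here. Alternatives were pseudocounts of 0.1 and 5, no filter, means of at least 5 TPM or 20 reads, quantile and median ratio scaling, no trend, a day block and leaving out each library. Same-day libraries share only the day: their deviations from the arm means correlated at 0.0464 across 8274 genes. Promoters are RefSeq windows on GRCh38.p14 (7 of 10 members).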

Additional observations from a re-analysis of the deposited data

How the results depend on the processing

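Depth limits most members: 6 of 10 had a mean under 20 reads, and their log2 differences move with single reads. Between the guides 0 genes passed under each alternative listed. For the days, the 3 calls were 0 under either other pseudocount, no filter, 20 reads or more, quantile normalization, no trend or the replicate block, and 0 to 0 when any library was left out. In the crossed contrast, the 8 calls were 14 (pseudocount 0.1), 13 (mean of 5 TPM or more), 0 (pseudocount 5, no filter, 20 reads or more, no trend) and 0 to 0 when any library was left out, which takes the arm left with 1 library to vary like the other. The cause was not tested. With the replicate block (the day as a term in the guide fit) 0 genes passed between the guides (359 at an unadjusted p below 0.05 by limma, 337 without it), and it changed no call of a member. In the crossed contrast, the day and the arm together as terms leave no residual degrees of freedom. With the day alone as the replicate block 0 genes passed (291 at an unadjusted p below 0.05 by limma), and with the arm alone 0 passed (211), 2 fits chosen after seeing the data.

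The guide difference of SUZ12 turned to 0.32 with a pseudocount of 0.1 and no filter, and that of RBBP4 to -0.0044 with median ratio scaling. The median of the tested members moved from -0.19 to -0.076 (pseudocount 5) and to 0.063 (mean of 5 TPM or more), which leaves fewer members. When 1 library was left out, it ranged from -0.20 to 0.027. The guide difference then ranged from -0.48 to 0.0043 for EZH2, from -0.86 to 0.71 for SUZ12, from -0.74 to 0.29 for EED, from -0.70 to 0.047 for JARID2, from -0.53 to 0.14 for PHC1, from -0.087 to 0.29 for RNF2, from -0.20 to 0.27 for RBBP4 and from -0.11 to 0.30 for RBBP7. The day difference ranged from -0.43 to 0.16 for EZH2, from -0.94 to 0.48 for SUZ12, from -0.65 to 0.57 for EED, from -0.69 to 0.10 for JARID2, from -0.47 to 0.36 for BMI1 (on 2 reads) and from -0.13 to 0.29 for RBBP7. PHC1, RNF2 and RBBP4 kept the sign of their day difference.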
